A study of Mus musculus with 6 samples.

Results

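The 34 genes described here make up the pathway that turns glucose into pyruvate and lactate, together with the oxygen-sensing system that can raise it. They were taken by gene symbol from 52549 genes measured by RNA-seq in mouse medulloblastoma, a malignant tumour of the cerebellum. All 34 were found, and all 34 passed the filter on low counts that left 19144 genes for testing. They comprise 16 glycolytic enzymes, 6 regulators of glycolytic flux and transporters, the hypoxia factor gene Hif1a, and 11 hypoxia targets. The samples were 3 tumours with wild-type EED and 3 tumours with mutant EED. The Eed protein binds and activates the Polycomb enzyme that methylates histone H3 and so keeps developmental genes silent. The sources used here do not give the Eed allele, any Cre driver, the tumour model, the strain or the age. Separate animals are not stated either, and each p-value then reflects the spread between these 6 samples, which may be technical.

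Glycolysis cleaves glucose into pyruvate, and lactate dehydrogenase then turns pyruvate into lactate when its entry into mitochondria is limited. Most steps can be run by more than 1 isozyme, and differentiated neurons and proliferating cells use different members of these families. When oxygen is low, the prolyl hydroxylases encoded by the Egln genes stop marking HIF-1 alpha protein for breakdown. The stabilised factor then binds short DNA elements near glycolytic genes, glucose and lactate transporters, and genes for blood vessel growth, mitophagy and collagen processing. Granule neuron precursors, the cells from which a subset of medulloblastomas arises, are known for high Hk2 and aerobic glycolysis while they divide.

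In the Eed mutant tumours the pathway as a whole was at about the level of the wild-type tumours. The median log2 fold change (mutant minus wild type) was -0.06 over the 16 enzymes and -0.02 over the 11 hypoxia targets, beside -0.01 over all genes tested. No member passed edgeR's quasi-likelihood test with Benjamini-Hochberg adjustment over all genes (0 of 34, smallest adjusted p = 0.152), and neither did any other gene (0% of 19144). At an unadjusted edgeR p under 0.05 there were 8 members (23.5% of 34), close to the 18.1% of all genes. Of the 8, Hk2 and Hif1a were higher in the mutants, as were 9.29% of all genes, and Pfkm, Pfkp, Ldhb, Slc2a3, Bnip3 and P4ha1 were lower, as were 8.78%. DESeq2 with Benjamini-Hochberg adjustment called 1 member, Bnip3, as lower. Of the genes for which it gave an adjusted p it called 5.22%, with 2.96% higher and 2.26% lower. The level in CPM (library-scaled counts) of 6 members did not overlap between the groups (17.6% of 34), beside 25% of all genes. In TPM (a length-scaled level) Pfkp overlapped, while Eno2, Pfkfb4, Pdk1, P4ha1 and Kdm3a did not. The share of all genes without overlap in TPM was not counted. These counts describe the members and set nothing apart as particular to them.

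**Figure D1:**
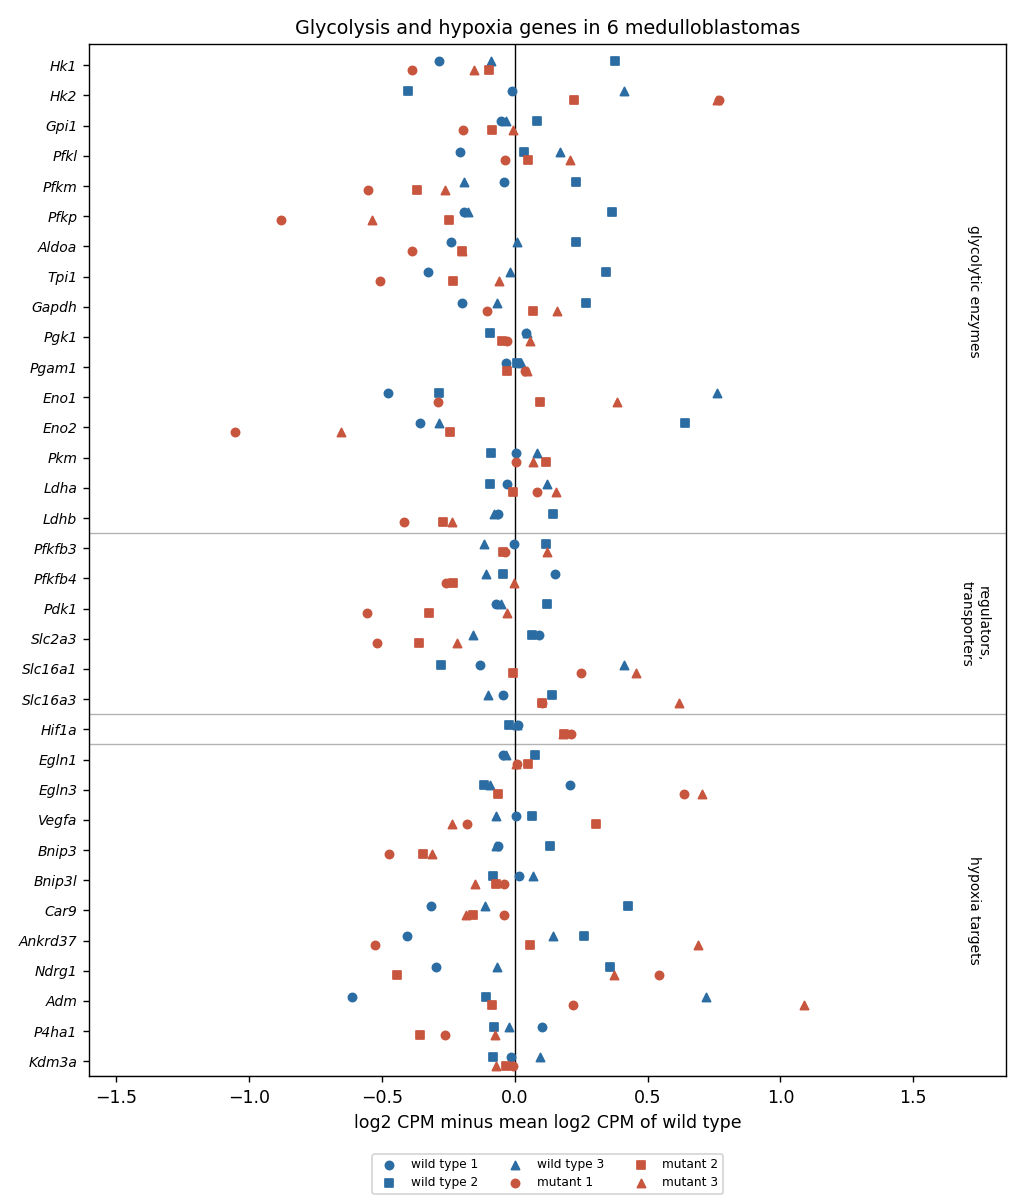
Level of each of the 34 genes in each library, as log2 CPM (library-scaled counts, with TMM factors) minus the mean log2 CPM of the 3 wild-type tumours. Blue marks are wild type, red marks are mutant, and the mark's shape gives the replicate number; wild-type replicate 2 lies at the right and mutant replicate 1 at the left for 8 of the 16 enzymes.

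Library totals ran from 26186236 to 26425111 estimated counts. The 34 members took 0.404% to 0.461% of them, and mitochondrial genes 4.94% to 5.47%. Genes of granule precursors and this tumour type were present in all 6 libraries, with Atoh1 at 75.3 to 172.1 CPM and Zic1 at 1211 to 1832 CPM. Atoh1 and the hedgehog target Gli1 did not overlap between the groups and were higher in the mutants (log2 fold changes 0.59 and 0.34). The other 5 of the 7 genes on that list had log2 fold changes below 0, and the list's median was -0.09. Oligodendrocyte markers were lower in the mutants for 10 of 10 genes, with summed levels of 386 to 1099 TPM (a length-scaled level) in wild type and 233 to 293 TPM in mutants. Granule neuron markers summed to 966, 1562 and 1068 TPM in the wild-type tumours, in replicate order, and to 757, 1152 and 918 TPM in the mutant tumours. Endothelial markers summed to 94.7 to 121 TPM and 119 to 132 TPM, and skeletal muscle markers to 34.3 to 51.6 TPM and 67.6 to 207 TPM. Every marker of these lists had counts in at least 1 library. In bulk tumour RNA, fewer cells of a type and less RNA per cell cannot be told apart.

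Pyruvate kinase, which makes pyruvate at the end of glycolysis, shows the isozyme question within a single gene. Pkm transcripts carry either of 2 mutually exclusive exons: the M1 exon is known from differentiated tissues such as muscle and brain, and the M2 exon from embryonic and proliferating cells. Both are exon 9 of their transcripts and coding sequence on the plus strand of GRCm38, the M1 exon at chr9:59675029-59675195 in Pkm-202 and the M2 exon at chr9:59675568-59675734 in Pkm-201. They are shown because reads over these 167 bases tell the forms apart. Capitals mark the 64 positions at which they differ (61.7% identity).
Pkm M1 exon: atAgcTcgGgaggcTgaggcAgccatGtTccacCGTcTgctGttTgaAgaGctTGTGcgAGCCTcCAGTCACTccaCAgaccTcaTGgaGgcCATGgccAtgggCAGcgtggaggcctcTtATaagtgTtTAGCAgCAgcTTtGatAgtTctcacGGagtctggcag
Pkm M2 exon: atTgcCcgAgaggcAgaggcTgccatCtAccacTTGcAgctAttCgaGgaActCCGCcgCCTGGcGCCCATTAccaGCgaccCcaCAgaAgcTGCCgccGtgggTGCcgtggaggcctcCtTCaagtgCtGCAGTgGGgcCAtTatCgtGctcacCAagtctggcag

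The M2 form was the main form in every library, and the M1 share was lower in the mutants. The M1 form took 17.7%, 26.7% and 18.8% of the summed TPM of M1 and M2 transcripts in the wild-type tumours, in replicate order, and 13.1%, 13.8% and 15.1% in the mutant tumours. The groups did not overlap, and wild-type replicate 2 stood above the other two wild-type tumours. M1 averaged 21.1% ± 4.93 in wild type and 14.01% ± 1.05 in mutants (SD, n = 3). A two-sided exact permutation test gave p = 0.1, which 3 against 3 samples cannot go below, and 0.35 after Benjamini-Hochberg adjustment over 7 isozyme shares. Without wild-type replicate 2 the difference was -4.23 percentage points instead of -7.06. The M1 transcript Pkm-202 was at 67.1, 96.8 and 74.9 TPM in wild type and at 47.4, 55.1 and 59.2 TPM in mutants. The M2 transcript Pkm-201 was at 312, 265 and 328 TPM and at 319, 344 and 333 TPM, so the groups overlapped for M2 and not for M1.

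Pkm as a whole (chr9:59656368-59679375, plus strand) overlapped between the groups. It was at 571.9, 535.3 and 602.7 CPM in wild type and 572.0, 617.4 and 597.6 CPM in mutants, a log2 fold change of 0.06 (SE 0.074, edgeR's quasi-likelihood test with Benjamini-Hochberg adjustment, adjusted p = 0.677).

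Lactate dehydrogenase, a tetramer that interconverts pyruvate and lactate, is built from the products of Ldha and Ldhb, and the Ldhb subunit is known from oxidative tissues such as heart and brain. Ldhb (chr6:142490249-142507957, minus strand) was at 130, 150.1 and 128.7 CPM in wild type and at 101.8, 112.7 and 115.5 CPM in mutants. All 3 mutant tumours lay below all 3 wild-type tumours. The means were 136.3 ± 12.01 and 110 ± 7.22 CPM (SD, n = 3). The log2 fold change was -0.31 (SE 0.084), with an unadjusted p of 0.0075 and an adjusted p of 0.161 in edgeR's quasi-likelihood test with Benjamini-Hochberg adjustment. Ldha (chr7:46841475-46855627, plus strand) was at 158.7, 151.6 and 176.2 CPM in wild type and 171.5, 161.1 and 180.1 CPM in mutants. Its groups overlapped, with a log2 fold change of 0.07 (SE 0.077, edgeR adjusted p = 0.632). Ldhb accordingly made up 50.3%, 55.3% and 48.0% of the summed Ldha and Ldhb TPM in wild type and 42.7%, 46.7% and 45.0% in mutants. These shares did not overlap (51.2% ± 3.72 and 44.8% ± 2.01, SD, n = 3), with p = 0.1 in the two-sided exact permutation test and 0.35 adjusted over the 7 shares. Without wild-type replicate 2 the difference in share was -4.37 percentage points instead of -6.42.

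Hexokinase traps glucose in the cell by phosphorylating it. Hk1 is the form usual in adult brain, and Hk2 is the inducible form of muscle and of many tumours. Hk2 (chr6:82725025-82774454, minus strand) was at 140.8, 107.5 and 188.4 CPM in wild type and at 241.7, 165.6 and 240.3 CPM in mutants. Mutant replicates 1 and 3 lay above every wild-type tumour, and mutant replicate 2 lay below wild-type replicate 3. Summed skeletal muscle markers were at 36.2, 34.3 and 51.6 TPM in wild type and at 101, 67.6 and 206.9 TPM in mutants, so that Hk2 and the muscle markers were lowest in wild-type replicate 2 and, within the mutants, in mutant replicate 2. The part of muscle RNA in the Hk2 difference was not tested. The mean was 145.6 ± 40.7 CPM in wild type and 215.9 ± 43.5 CPM in mutants (SD, n = 3). Hk2 had a log2 fold change of 0.57 (SE 0.225), with an unadjusted p of 0.0392 and an adjusted p of 0.255 in edgeR's quasi-likelihood test. Hk1 (chr10:62268855-62379908, minus strand) was at 53.9, 85.5 and 61.8 CPM in wild type and 50.4, 61.5 and 59.2 CPM in mutants, with a log2 fold change of -0.23 (SE 0.172, edgeR adjusted p = 0.498). Hk2 made up 63.5%, 48.4% and 67.2% of the summed Hk1 and Hk2 TPM in wild type and 77.6%, 64.7% and 74.7% in mutants. These shares overlapped (59.7% ± 9.97 and 72.3% ± 6.78, SD, n = 3), with p = 0.2 in the two-sided exact permutation test.

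Phosphofructokinase catalyses the committed step of glycolysis and is encoded by Pfkl, Pfkm and Pfkp, named for liver, muscle and platelet and all 3 expressed in brain. Pfkm (chr15:98092589-98132451, plus strand) was at 103.8, 125.1 and 93.5 CPM in wild type and at 72.8, 82.7 and 89.0 CPM in mutants. All mutant tumours lay below all wild-type tumours, with a log2 fold change of -0.40 (SE 0.123, unadjusted p = 0.0138, adjusted p = 0.188 in edgeR's quasi-likelihood test). Pfkp (chr13:6579768-6648777, minus strand) was at 101.4, 149.2 and 102.5 CPM in wild type and at 63.0, 97.5 and 79.9 CPM in mutants. Its log2 fold change was -0.56 (SE 0.202, unadjusted p = 0.0279, adjusted p = 0.231 in edgeR's quasi-likelihood test). In TPM the Pfkp groups overlapped, since mutant replicate 2 (49.1 TPM) passed wild-type replicates 1 and 3 (47.4 and 47.8 TPM). A Pfkp transcript shares 748 bases with the overlapping gene Pitrm1, so its count is uncertain. Most Pfkp counts in every library were assigned to Pfkp-212, a transcript annotated as keeping an intron. It had 1752, 2548 and 1692 estimated counts in wild type and 996, 1592 and 1344 in mutants. The level and the share of a gene count all its transcripts, coding or not. Pfkl (chr10:77986947-78010083, minus strand) was at 28.5 to 37.1 CPM in wild type and 32.1 to 38.03 CPM in mutants, with a log2 fold change of 0.07 (SE 0.116, edgeR adjusted p = 0.782). The 3 shares of the family overlapped between the groups, with means of 14.6% and 19.9% for Pfkl, 44.1% and 43.0% for Pfkm, and 41.3% and 37.1% for Pfkp (two-sided exact permutation tests, p = 0.2, 0.7 and 0.4).

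**Figure D2:**
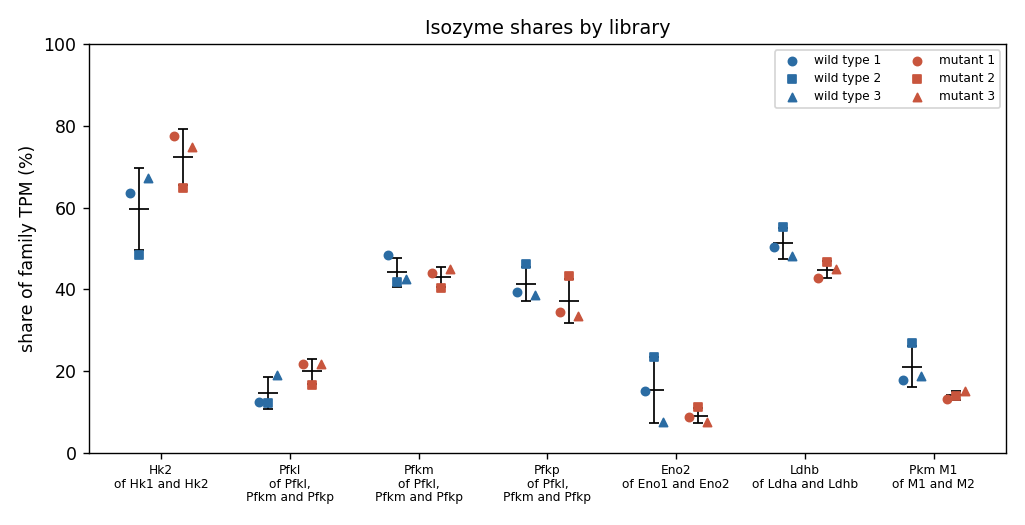
Share of each isozyme, or of the Pkm M1 form, in the summed TPM of its family, in percent, for each of the 6 libraries. The Eno2 share plotted leaves out Eno1b, a near-identical copy of Eno1, and so depends on how reads were split between them. With Eno1b added, which was chosen after seeing the data, it was 8.54%, 14.3% and 7.38% in wild type. In mutants it was then 4.95%, 8.62% and 5.9%, with overlap. Bars are mean ± SD over 3 tumours; the groups do not overlap for Ldhb and for Pkm M1, and the Hk2 share of wild-type replicate 2 (48.4%) lies below all others.

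Enolase, which makes phosphoenolpyruvate, is encoded by the widely expressed Eno1 and the neuronal Eno2, a marker of mature neurons. Eno2 (chr6:124760053-124769673, minus strand) was at 44.1, 87.9 and 46.3 CPM in wild type and at 27.2, 47.7 and 35.8 CPM in mutants. Mutant replicate 2 overlapped the wild-type range in CPM, while in TPM (32.1, 60.9 and 32.5 against 18.97, 31.7 and 25.6) the groups did not overlap. Eno2 had a log2 fold change of -0.69 (SE 0.310), with an unadjusted p of 0.0616 and an adjusted p of 0.296 in edgeR's quasi-likelihood test. Without wild-type replicate 2 it was -0.29.

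Eno1 (chr4:150236721-150248879, plus strand) cannot be read without its near-identical copy Eno1b, which matches an Eno1 transcript at 99.5% of 1736 aligned bases with 9 mismatches. Eno1 was at 180, 200 and 408 TPM in wild type and at 201.1, 251.1 and 320 TPM in mutants. Eno1b was at 164, 166 and 0.116 TPM in wild type and at 163, 85.0 and 88.6 TPM in mutants. The library with the most Eno1, wild-type replicate 3, was the one with almost no Eno1b. The sum of both was 343.6, 365.4 and 408.0 TPM in wild type and 363.9, 336.1 and 408.7 TPM in mutants, a much narrower range with overlapping groups. With the counts of its copies added, the log2 fold change of Eno1 was 0.01 and its SE was 0.112, where Eno1 alone had -0.02 and an SE of 0.335.

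Gapdh, which oxidises glyceraldehyde phosphate and is a common reference gene, had the same difficulty with its 71 near-identical copies. They took 2.54% to 18.9% of the joint counts, and wild-type replicate 2 gave them the least. Gapdh alone (chr6:125161715-125166467, minus strand) was at 798.3, 1103 and 874.8 CPM in wild type and at 852.0, 962.1 and 1025 CPM in mutants. The groups overlapped, with a log2 fold change of 0.03 (SE 0.136, edgeR adjusted p = 0.922). With its copies it was at 984.9, 1132 and 1066 CPM and at 969.7, 1009 and 1105 CPM, a log2 fold change of -0.04 (SE 0.089). Adding copies to the counts was chosen after seeing the data.

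**Figure D3:**
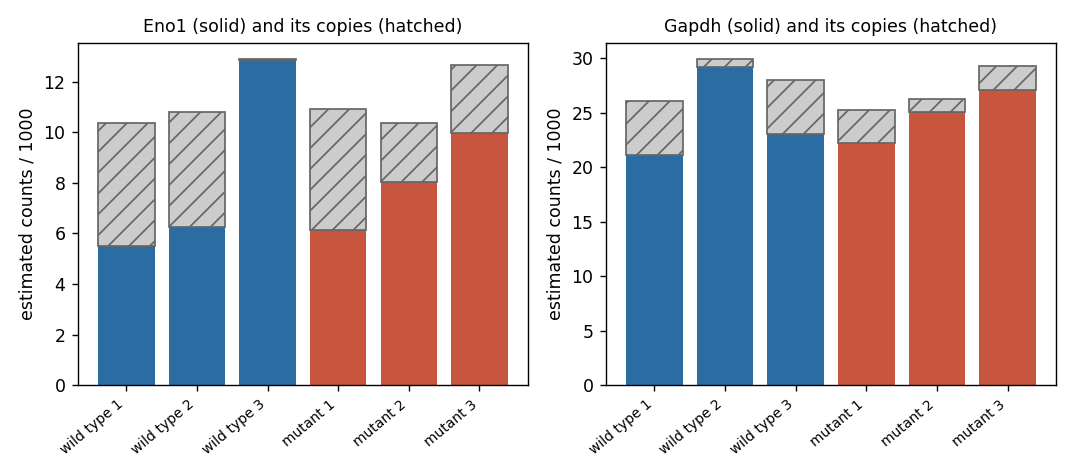
Estimated counts (axis values times 1000) assigned to Eno1 (left) and Gapdh (right) in each library as solid bars (blue for wild type, red for mutant) with the counts of their near-identical copies stacked on top as hatched bars. Wild-type replicate 3 has nearly all of its Eno1 family counts on Eno1 (0.21% on copies), while the joint height of the bars varies less than the solid part.

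The other enzymes of the lower and middle pathway differed little. Pgk1, Pgam1 and Ldha had log2 fold changes between -0.01 and 0.07, with SEs of 0.065, 0.054 and 0.077. Pgam1, the mutase that moves the phosphate group along glycerate, was at 150.3, 154.9 and 156.5 CPM in wild type and at 158.1, 150.9 and 159.1 CPM in mutants. Gpi1, the isomerase that follows hexokinase, had a log2 fold change of -0.09 (SE 0.072), Aldoa, the aldolase that splits the sugar, -0.27 (SE 0.122), and Tpi1, which interconverts the triose phosphates, -0.28 (SE 0.182). Aldoa was at 170.8, 236.3 and 203.0 CPM in wild type and at 154.1, 175.9 and 175.9 CPM in mutants, with mutant replicates 2 and 3 above wild-type replicate 1. Adjusted p-values of Gpi1, Aldoa and Tpi1 in edgeR's quasi-likelihood test were 0.513, 0.298 and 0.443.

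A set of enzymes shared their highest and their lowest library. Hk1, Gpi1, Pfkm, Pfkp, Aldoa, Tpi1, Eno2 and Ldhb were each highest of the 6 libraries in wild-type replicate 2 and lowest in mutant replicate 1. Wild-type replicate 2 was also highest for Gapdh, and it was lowest for Hk2, Pgk1, Pkm and Ldha. The same 2 libraries held the highest and the lowest summed granule neuron markers (1562 and 757 TPM) and the highest and lowest summed oligodendrocyte markers (1099 and 233 TPM). Without wild-type replicate 2, log2 fold changes were -0.02 instead of -0.23 for Hk1, -0.35 instead of -0.56 for Pfkp, -0.15 instead of -0.27 for Aldoa and -0.09 instead of -0.28 for Tpi1. The part of neuron and glial content in these differences was not tested. The median of the 16 enzymes, as log2 CPM from the wild-type mean, was -0.13, 0.11 and -0.003 over the wild-type tumours in replicate order. Over the mutant tumours it was -0.24, -0.07 and 0.02, so the groups overlapped.

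Among the regulators and transporters, Slc2a3, the high-affinity glucose transporter of neurons, differed most. Slc2a3 (chr6:122727809-122801640, minus strand) was at 52.4, 51.5 and 44.1 CPM in wild type and at 34.3, 38.4 and 42.3 CPM in mutants. All 3 mutant tumours lay below all wild-type tumours, the closest pair being 42.3 and 44.1 CPM. The means were 49.4 ± 4.57 and 38.4 ± 4.01 CPM (SD, n = 3). Slc2a3 had a log2 fold change of -0.36 (SE 0.105), with an unadjusted p of 0.0103 and an adjusted p of 0.173 in edgeR's quasi-likelihood test.

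Pdk1, the kinase that shuts pyruvate dehydrogenase and so keeps pyruvate from the mitochondria, was at 9.85, 11.2 and 9.96 CPM in wild type and at 7.03, 8.26 and 10.1 CPM in mutants. Mutant replicate 3 lay within the wild-type range in CPM. In TPM, which uses transcript length, the values were 5.49, 5.60 and 6.13 in wild type and 3.52, 3.57 and 4.80 in mutants, and the groups did not overlap. Its log2 fold change was -0.29 (SE 0.161, edgeR adjusted p = 0.380). Pfkfb4, of the enzyme family that sets the activator of phosphofructokinase, behaved alike, with overlap in CPM (13.1 to 15.7 against 11.8 to 14.1) and none in TPM (10.99 to 14.01 against 8.39 to 10.8). Its relative Pfkfb3 was at 32.5 to 38.2 CPM in wild type and 34.1 to 38.3 CPM in mutants. The lactate transporters Slc16a1 (63.5 to 102.4 CPM against 76.7 to 105.8 CPM) and Slc16a3 (1.64 to 1.93 CPM against 1.88 to 2.68 CPM) overlapped as well, with log2 fold changes of 0.21 (SE 0.195) and 0.29 (SE 0.213). For Slc16a1, the tumours numbered 3 were the highest of their groups.

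Hif1a, whose product is controlled mainly through protein stability, differed by little and with little spread. Hif1a (chr12:73901375-73947530, plus strand) was at 222.9, 217.5 and 222.4 CPM in wild type and at 256.0, 251.3 and 250.8 CPM in mutants. The groups were far apart relative to their spread, at 220.9 ± 3.00 and 252.7 ± 2.82 CPM (SD, n = 3). The difference was small in size, a 1.14-fold higher level. Hif1a had a log2 fold change of 0.19 (SE 0.052, the smallest SE of all members), with an unadjusted p of 0.00716 and an adjusted p of 0.161 in edgeR's quasi-likelihood test, and DESeq2's Benjamini-Hochberg adjusted p was 0.0604. HIF-1 alpha protein was not measured.

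**Figure D4:**
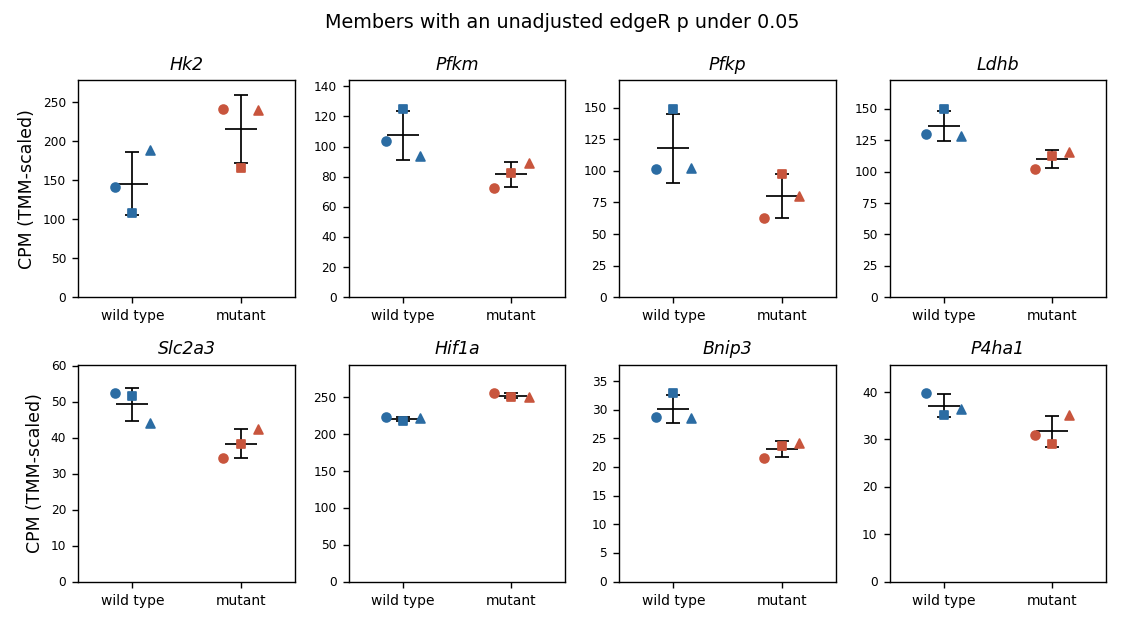
Level in CPM, from 0, of the 8 members with an unadjusted edgeR p under 0.05, by group; points are tumours, marked by replicate number as circle, square and triangle, and bars are mean ± SD (n = 3). Hif1a is higher in every mutant tumour with little spread, Bnip3 and Ldhb are lower in every mutant tumour, and the Hk2 and P4ha1 groups overlap.

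The hypoxia targets were split in direction: 5 of the 11 had a log2 fold change above 0 and 6 below, and 2 had an unadjusted edgeR p under 0.05, both lower in mutants. That is 18.2% of the targets, beside 18.1% of all genes. The motif that HIF binds is ACGTG or GCGTG, read on either strand as CACGT or CACGC. It was searched in the 250 bases before every RefSeq start of each gene (GRCm38.p6), with matches that overlap each other counted separately. A gene with several starts was counted by the start with the most matches. Of the 31 members with a promoter entry, 28 held it before some start (90.3%), beside 41.5% of 27025 genes counted alike. These are all genes with a promoter entry, whether or not tested here, and were not matched to the members in base composition. Some members were listed as known hypoxia targets, so these shares cannot show an enrichment. The motif was found in 9 of 9 hypoxia targets and 13 of 16 enzymes with an entry, and not in Eno2, Gpi1 and Tpi1. For some of these genes, such as Kdm3a and Vegfa, it was absent before other starts. A match is a string of letters and says nothing of binding. The promoters of the 2 lower targets, of Hk2 and of Ankrd37, a target whose groups overlapped, are shown 5′ to 3′ with matches in capitals, at chr7:138909507-138909756 (minus strand), chr10:59323046-59323295 (plus strand), chr6:82774455-82774704 (minus strand) and chr8:45999851-46000100 (minus strand).
Bnip3: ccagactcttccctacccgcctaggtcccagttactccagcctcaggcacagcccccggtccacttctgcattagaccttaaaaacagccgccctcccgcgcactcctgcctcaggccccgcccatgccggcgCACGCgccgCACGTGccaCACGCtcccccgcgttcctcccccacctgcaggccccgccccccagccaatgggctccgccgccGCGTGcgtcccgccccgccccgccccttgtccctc
P4ha1: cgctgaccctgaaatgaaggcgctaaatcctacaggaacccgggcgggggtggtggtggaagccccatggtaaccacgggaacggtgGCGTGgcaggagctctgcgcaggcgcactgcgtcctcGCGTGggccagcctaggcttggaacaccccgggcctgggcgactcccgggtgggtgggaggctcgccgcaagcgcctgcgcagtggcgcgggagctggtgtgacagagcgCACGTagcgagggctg
Hk2: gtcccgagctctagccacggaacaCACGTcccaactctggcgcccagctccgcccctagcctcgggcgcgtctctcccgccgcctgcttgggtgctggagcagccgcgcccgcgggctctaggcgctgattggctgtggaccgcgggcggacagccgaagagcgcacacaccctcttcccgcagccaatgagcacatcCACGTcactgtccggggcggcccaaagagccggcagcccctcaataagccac
Ankrd37: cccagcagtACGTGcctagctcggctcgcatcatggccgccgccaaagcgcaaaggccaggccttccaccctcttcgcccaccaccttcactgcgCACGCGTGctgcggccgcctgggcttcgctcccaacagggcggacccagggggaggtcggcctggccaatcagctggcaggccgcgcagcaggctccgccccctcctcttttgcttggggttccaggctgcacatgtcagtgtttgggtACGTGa

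Promoters with 2 or more matches belonged to Bnip3, which was lower in every mutant tumour, and also to genes whose groups overlapped in CPM. Bnip3 held 5 matches, Ankrd37 4, P4ha1 3 and Hk2 2. Ldha, whose log2 fold change was 0.07, held 5 as well before 1 start and 1 before the other.

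Bnip3, a mitochondrial protein of mitophagy and a classical HIF target, was the member with the smallest p. Bnip3 (chr7:138890836-138909519, minus strand) was at 28.8, 32.9 and 28.6 CPM in wild type and at 21.7, 23.7 and 24.2 CPM in mutants. The lowest wild-type tumour lay above the highest mutant tumour. The means were 30.1 ± 2.43 and 23.2 ± 1.35 CPM (SD, n = 3). The log2 fold change was -0.38 (SE 0.091), with an unadjusted p of 0.00425 and an adjusted p of 0.152 in edgeR's quasi-likelihood test. DESeq2 gave a Benjamini-Hochberg adjusted p of 0.0377, and by that test Bnip3 fell. Its relative Bnip3l, with the same role in clearing mitochondria, was at 193.2, 180.5 and 200.3 CPM in wild type and at 185.7, 182.0 and 172.5 CPM in mutants, with overlap and a log2 fold change of -0.09 (SE 0.064, edgeR adjusted p = 0.496).

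P4ha1, the catalytic subunit of the hydroxylase that matures collagen, was at 39.8, 35.1 and 36.5 CPM in wild type and at 30.9, 29.0 and 35.2 CPM in mutants. Mutant replicate 3 lay just above wild-type replicate 2. The log2 fold change was -0.23 (SE 0.096, unadjusted p = 0.0489, adjusted p = 0.275 in edgeR's quasi-likelihood test). In TPM the groups did not overlap, at 21.3 to 23.1 and 16.1 to 20.6.

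Among the members, the secreted vascular targets Vegfa and Adm did not differ between the groups beyond their spread. Pgf, a growth factor from the list of other hypoxia targets, was higher in the mutants and is described below. Vegfa, the main growth factor for blood vessels (chr17:46016993-46032369, minus strand), was at 41.5, 43.3 and 39.4 CPM in wild type and at 36.5, 51.1 and 35.1 CPM in mutants. The mutant tumours stood on both sides of the wild-type tumours, with a log2 fold change of -0.02 (SE 0.146, edgeR adjusted p = 0.963). Adm, the vasodilator peptide adrenomedullin, was at 0.453 to 1.14 CPM in wild type and 0.653 to 1.47 CPM in mutants. Endothelial markers, by contrast, had 9 of 9 log2 fold changes above 0 in the same libraries. Of these 9, 4 had an unadjusted edgeR p under 0.05, beside 18.1% of all genes.

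Car9, the membrane carbonic anhydrase used as a tissue marker of hypoxia, was close to the bottom of the measured range. Car9 (chr4:43506966-43513729, plus strand) was at 0.793, 1.33 and 0.912 CPM in wild type and at 0.960, 0.884 and 0.870 CPM in mutants, which is 20.6 to 35.2 estimated counts per library. No library stood out with a high level, and the log2 fold change was -0.16 (SE 0.259, edgeR adjusted p = 0.776). The targets Egln3, Ankrd37 and Adm were also below 6 CPM in every library.

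The prolyl hydroxylase genes differed from each other. Egln1, the main oxygen sensor, was nearly constant at 83.6 to 90.8 CPM in wild type and 86.4 to 89.2 CPM in mutants. Egln3, the most hypoxia-inducible of the family, was at 4.08, 3.26 and 3.31 CPM in wild type and at 5.49, 3.38 and 5.75 CPM in mutants. Mutant replicates 1 and 3 lay above every wild-type tumour while mutant replicate 2 lay within them, and the log2 fold change was 0.46 (SE 0.237, edgeR adjusted p = 0.349). Mutant replicates 1 and 3 were likewise above mutant replicate 2 for Hk2, Ndrg1, Adm and Slc16a1. Ndrg1, a stress-response gene, was at 6.42, 10.1 and 7.53 CPM in wild type and at 11.5, 5.80 and 10.2 CPM in mutants, with a log2 fold change of 0.19 (SE 0.284). The histone demethylase gene Kdm3a was at 106.6 to 120.6 CPM and 107.5 to 112.5 CPM, with a log2 fold change of -0.04 (SE 0.064). In TPM its groups did not overlap, though by little, at 67.4 to 73.0 in wild type and 64.4 to 67.3 in mutants.

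Set beside each other, the enzymes spread more widely than the hypoxia targets around nearly equal medians. Log2 fold changes ran from -0.69 to 0.57 over the enzymes, where 10 of 16 were below 0, and from -0.38 to 0.46 over the targets, where 6 of 11 were below 0, beside 51.4% of all genes. Changes over 0.5 in size were seen for 3 members (Hk2, Pfkp and Eno2, 8.82% of 34, beside 14.7% of all genes), all of them enzymes. Without wild-type replicate 2 these 3 were at 0.39, -0.35 and -0.29. The enzymes summed to 3025, 3664 and 3486 TPM in wild type and to 2926, 3265 and 3498 TPM in mutants, with overlap. The targets summed to 404.9, 411.6 and 406.7 TPM in wild type and to 371.7, 389.9 and 389.7 TPM in mutants, without overlap. The lower sum came mostly from Bnip3 (means of 37.0 and 28.2 TPM), Bnip3l (174.7 and 166.5 TPM), Kdm3a (70.6 and 65.8 TPM) and P4ha1 (21.99 and 18.1 TPM). Sums of a list of other hypoxia targets did not overlap either (1537 to 1612 TPM in wild type, 1423 to 1497 TPM in mutants). Sums of the oxygen-sensing machinery did not overlap in TPM (1009 to 1064 and 984.9 to 1007) but did in CPM (1026 to 1094 and 1044 to 1062). In CPM the sums of both target lists stayed apart. They were 506.4 to 524.3 and 481.8 to 497.7 CPM for the members, and 1444 to 1457 and 1348 to 1415 CPM for the other targets. Sums of the citric acid cycle list and of the pentose phosphate list overlapped. No test was made of these sums.

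By length-scaled level, the pathway spanned a wide range. In wild type, Gapdh led at 1211 ± 212 TPM, followed by Pkm at 419 ± 28.1, Eno1 and Eno1b together at 372.3 ± 32.8, Aldoa at 234 ± 34.1 and Gpi1 at 224 ± 21.6 TPM (SD, n = 3). Pkm was above the Eno1 sum within each wild-type library (422.2, 389.4 and 445.4 TPM beside 343.6, 365.4 and 408.0 TPM), though their ranges overlapped. Aldoa and Gpi1 were within their spread of each other. These levels count all transcripts, coding or not, and most of the Gpi1 level was assigned to transcripts not annotated as coding. In wild type its main coding transcript was at 74.2, 63.3 and 65.2 TPM, of 202.9, 246.1 and 222.7 TPM for the gene. Gpi1 therefore holds this place only by its summed level. Eno1 alone, at 262 ± 126 TPM, has no firm place in this order, since its level rests on the split of reads with Eno1b. At the bottom were Car9 at 1.67 ± 0.879, Slc16a3 at 1.55 ± 0.457 and Adm at 1.09 ± 0.642 TPM, which did not differ beyond their spread. The mutants had the same gene at the top (Gapdh, 1211 ± 132 TPM), and the same 3 genes at the bottom at 1.44 to 1.58 TPM.

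Without mutant replicate 1, which had the lowest level for 13 of the 34 members, 4 of the 8 members kept an unadjusted edgeR p under 0.05: Ldhb, Slc2a3, Hif1a and Bnip3. The share of all genes under that threshold was then 9.39%. These 4 stayed under it when any library was left out, with largest p-values of 0.0319, 0.0390, 0.0326 and 0.0188. The file names carry a code of unstated meaning, shared by wild-type replicate 2 with mutant replicates 1 and 2, and by wild-type replicate 3 with mutant replicate 3. With this code as a term in the fit, Hk2, Pfkm, Pfkp, Ldhb, Hif1a and Bnip3 were still under 0.05, while Slc2a3 and P4ha1 were not. Hk2 and P4ha1, whose groups overlapped, had the same direction within each of the 2 shared codes, where the libraries are too few for a test. For the other 6 of the 8 members the groups did not overlap, so their direction within a code was fixed in advance. Between the libraries numbered 3, Slc2a3 differed by little (44.1 CPM, wild type, beside 42.3 CPM, mutant) and Hif1a by more (222.4 beside 250.8 CPM).

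Other genes of the pathway were read from lists drawn up beside the members. Of 22 other glycolysis genes, 18 were tested, and at an unadjusted edgeR p under 0.05 there were 1 higher (Eno3) and 3 lower (Aldoc, Pfkfb2 and Slc16a7). Among all genes, 18.1% were under that threshold. DESeq2 with adjustment over all genes called the same 3 lower ones, beside 5.22% of the genes for which it gave an adjusted p. Aldoc, the brain aldolase and also an astrocyte marker, was at 235.2, 330.3 and 166.5 CPM in wild type and at 134.3, 130.3 and 149.2 CPM in mutants (log2 fold change -0.82, SE 0.225; DESeq2 adjusted p = 0.00844). All mutant tumours lay below all wild-type tumours. Pfkfb2, a relative of Pfkfb3, was at 40.3, 36.6 and 39.7 CPM and at 32.6, 31.0 and 30.8 CPM, a log2 fold change of -0.30 (SE 0.072) with an adjusted p of 0.0444 in DESeq2. Slc16a7, a high-affinity monocarboxylate transporter of neurons, was at 13.0, 18.8 and 14.1 CPM and at 9.68, 10.8 and 10.8 CPM, a log2 fold change of -0.56 (SE 0.159) with an adjusted p of 0.0468 in DESeq2. Astrocyte markers had 6 of 6 log2 fold changes below 0. They summed to 734 to 1158 TPM in wild type and 591 to 835 TPM in mutants. Aldoc is itself on that list and enters its count and sum, with means of 231.9 TPM in wild type and 124.7 TPM in mutants. The part of astrocyte content in the Aldoc difference was not tested. Eno3, the muscle enolase, was at 5.44 to 8.29 CPM in wild type and 7.57 to 12.4 CPM in mutants and belongs to the skeletal muscle markers, which summed higher in every mutant tumour.

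Of 35 other hypoxia targets, 33 were tested, with 2 higher (Loxl2 and Pgf) and 4 lower (Mxi1, Ccng2, Mt1 and Mt2) at an unadjusted edgeR p under 0.05. The share of all genes under that threshold was 18.1%, so this count sets nothing apart. Pgf, placental growth factor, was at 6.12, 6.02 and 13.4 CPM in wild type and at 20.4, 17.9 and 17.3 CPM in mutants (log2 fold change 1.125, SE 0.311). By DESeq2 (adjusted p = 0.0072) it rose. Mxi1, a MYC antagonist, was lower at 148.7 to 162.9 CPM against 130.2 to 136.0 CPM, and Ccng2, a cyclin linked to cell cycle arrest, at 151.8 to 171.6 CPM against 132.6 to 149.8 CPM. Mt2, a metallothionein, was at 15.4, 30.6 and 14.1 CPM in wild type and at 12.8, 11.6 and 11.5 CPM in mutants, highest in wild-type replicate 2. The list's median log2 fold change was 0.03. Among 13 tested genes of the oxygen-sensing machinery, 1 had an unadjusted edgeR p under 0.05: Egln2, a prolyl hydroxylase, at 51.0, 57.1 and 52.9 CPM in wild type and at 46.9, 49.2 and 47.2 CPM in mutants (log2 fold change -0.17, SE 0.068). Arnt, the partner of HIF-1 alpha, was at 88.1 to 96.3 CPM and 81.2 to 88.2 CPM.

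**Figure D5:**
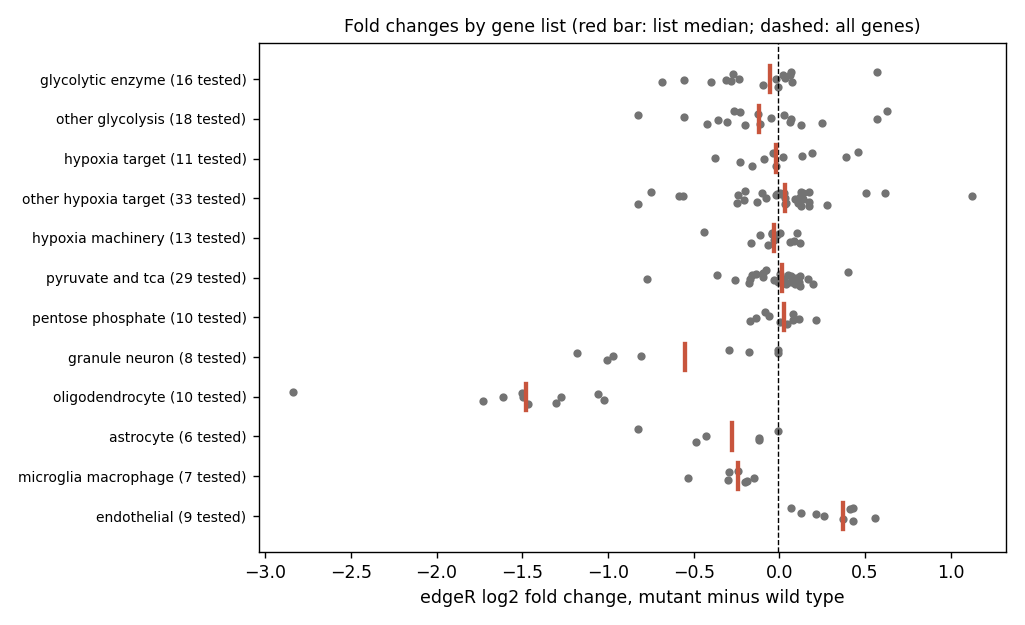
Fitted edgeR log2 fold changes (mutant minus wild type) of the tested genes of 12 lists; each point is a gene, the red bar is the list's median and the dashed line is the median of all genes (-0.01). The glycolysis and hypoxia lists lie around the dashed line, while the oligodendrocyte markers lie wholly to its left (median -1.48) and the endothelial markers wholly to its right (median 0.37).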

How the data were processed

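RNA was sequenced from mouse medulloblastomas, 3 with wild-type and 3 with mutant EED. The deposited files hold kallisto estimated counts, TPM and effective lengths per transcript, per the file headers, and kallisto 0.43.1 and GRCm38 (mm10) are named in the submitters' processing notes. The sources used here do not name the annotation release, the strand setting or how RNA was selected.

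Estimated counts and TPM were summed over the 131100 transcripts by gene and counts were rounded, giving 52549 genes, of which 52402 matched GENCODE M21, which supplied coordinates. A second identifier with the symbol Aldoa was added to Aldoa. Groups were compared with edgeR 4.0.16 in R 4.3.3 (TMM, default filter, quasi-likelihood test, Benjamini-Hochberg adjustment over 19144 genes at 0.05), after a check on simulated data. Levels are TMM-scaled CPM. Alternatives were DESeq2 1.42.0, limma 3.58.1 (voom, and trend on log2 of TPM plus 1 or 0.1), other scalings and filters, a length offset, the replicate number or file-name code as a term, and leaving out each library. Named were all members, with full values for the smallest p and the head of each role, and up to 4 genes of smallest p per other list with at least 1 CPM. Copies are genes matching at least 95% over at least 50% of a member's transcript. The members and lists were chosen with earlier results of these data known.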

Additional observations from a re-analysis of the deposited data

How the results depend on the processing

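The count of genes called at an adjusted p under 0.05 was 0 in edgeR and depended on the test: 923 by DESeq2, 1 by limma-voom, 1 by limma-trend on log2(TPM + 0.1), 3 without a filter on low counts, and 0 to 9 when a library was left out. Members called numbered 0 under these settings except 1 by DESeq2 (Bnip3). With the replicate number as a block there were 273 called genes (189 higher and 84 lower) and 1 called member (Pfkp, adjusted p = 0.0448). The labels do not say whether the numbers pair the tumours. Deviations of same-numbered tumours correlated at 0.227, 0.062 and -0.135, and only the libraries numbered 1 correlated best with their own number. With 3 tumours per group these values cannot settle whether there is a pairing. Members with an unadjusted p under 0.05 numbered 8, and 4 to 10 when a library was left out, the lowest without mutant replicate 1. The median log2 fold change of the hypoxia targets was -0.02, and -0.045 to 0.060 when a library was left out, the highest without wild-type replicate 2.

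Of 644 recomputed fold changes of the members, 44 changed sign, in 13 members whose difference was within its error, and 21 members kept their sign. The cause was not tested. On log2(TPM + 1) and log2(TPM + 0.1) the sign changed for Pgam1 (-0.014 in both), Eno1 (0.047 in both), Pfkfb3 (-0.061 and -0.065) and Egln1 (-0.006 and -0.007). With a length offset it changed for Eno1 (0.007), Pfkfb3 (-0.026) and Vegfa (0.038), with voom for Eno1 (0.063), by library size alone for Pfkfb3 (-0.004), and with the replicate block for Eno1 (0.064). With the file-name code as a term it changed for Gapdh (-0.067), Pgk1 (0.035), Egln1 (-0.010) and Ankrd37 (-0.026). With near-identical copies added, an alternative chosen after seeing the data, it changed for Gapdh (-0.045), Pgk1 (0.003) and Eno1 (0.008). When each library was left out in turn, values crossed 0 and ranged from -0.028 to 0.159 for Pfkl, -0.064 to 0.178 for Gapdh, -0.052 to 0.017 for Pgk1, -0.242 to 0.467 for Eno1, -0.042 to 0.075 for Pfkfb3, -0.001 to 0.060 for Egln1, -0.210 to 0.082 for Vegfa, -0.306 to 0.084 for Car9, -0.231 to 0.380 for Ankrd37, -0.002 to 0.434 for Ndrg1, -0.030 to 0.831 for Adm and -0.078 to 0.012 for Kdm3a.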

Other observations

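Genes that carry pyruvate onward were also near their wild-type level. Of 29 genes of pyruvate entry and the citric acid cycle, all tested, 1 was higher (Pcx) and 3 were lower (Mpc1, Pdp1 and Mdh1) at an unadjusted edgeR p under 0.05. The share of all genes under that threshold was 18.1%, so this count sets nothing apart. DESeq2 called none of the 29 after adjustment. Mpc1, a subunit of the carrier that brings pyruvate into mitochondria, was at 73.4, 72.5 and 71.3 CPM in wild type and at 64.5, 62.3 and 64.9 CPM in mutants. Its groups did not overlap, with a log2 fold change of -0.18 (SE 0.055, adjusted p = 0.187 in edgeR's quasi-likelihood test). Pdp1, the phosphatase that reactivates pyruvate dehydrogenase and so opposes Pdk1, was at 47.0, 52.8 and 47.9 CPM in wild type and at 39.7, 45.1 and 38.5 CPM in mutants, without overlap (log2 fold change -0.26, SE 0.087). Pcx, pyruvate carboxylase, was at 147.1, 112.9 and 125.5 CPM in wild type and at 184.4, 136.8 and 188.6 CPM in mutants, with mutant replicate 2 inside the wild-type range. Mdh1, the cytosolic malate dehydrogenase, was at 180.1 to 182.7 CPM in wild type and 152.3 to 171.3 CPM in mutants.

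The pentose phosphate branch, which leaves glycolysis after hexokinase, had 0 of 10 genes at an unadjusted edgeR p under 0.05, beside 18.1% of all genes. Its median log2 fold change was 0.03. Rpia, the isomerase that makes ribose phosphate, was at 24.8 to 25.0 CPM in wild type and 22.3 to 23.3 CPM in mutants without overlap, and Pgd, which produces NADPH, was at 59.4, 49.8 and 52.1 CPM in wild type and at 66.6, 56.2 and 64.1 CPM in mutants.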
